A study of Arabidopsis thaliana with 48 samples.

Results

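The genes described here are alpha-expansins (EXPA), expansin-like genes (EXLA and EXLB), xyloglucan endotransglucosylase/hydrolases (XTH), glycosyl hydrolase family 9 glucanases (GH9), cellulose synthase-like genes (CSL) and a beta-galactosidase (BGAL), measured in roots of Arabidopsis thaliana seedlings given auxin. Membership was set by symbol alone, though the families were chosen with earlier results of these data known. Every gene with a symbol of these families, or of the cellulose synthases (CESA), fasciclin-like proteins (FLA) and arabinogalactan proteins (AGP), was taken if a probe set of the array named that gene and no other. This gave 46 genes of 13356 with such a probe set, and each had exactly 1 probe set. They were 10 of 24 EXPA genes in the gene table, all 4 of the EXLA and EXLB genes, 9 of 30 XTH, 15 of 21 GH9, 7 of 26 CSL and 1 of 15 BGAL. None of the 7 CESA, 19 FLA and 30 AGP genes of the gene table had a single-gene probe set here, so these families were not analysed, and "wall genes" below means the 46.

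The seedlings were 6 days old, had grown in continuous light on a nylon screen, and this screen was placed on fresh plates that held either 1 µM indole-3-acetic acid (IAA, the main natural auxin) or none (control medium). Roots were taken at 8 times, from 0 h (under 5 minutes on the plate) through 0.5, 1, 2, 4, 8 and 12 h to 24 h. Each of the 16 groups of medium and time had 3 arrays, 48 in all, and the controls differed from the treated roots only by the IAA. The labels give no genotype and do not say whether replicates were separate cultures, so p-values measure the spread between these samples. Whole roots were extracted. A lower value can therefore mean fewer cells of a type or less RNA per cell, and these cannot be told apart.

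A primary plant wall is a network of cellulose microfibrils tied by xyloglucan and set in pectin. Expansins loosen this network without cutting it. XTH enzymes cut xyloglucan chains and rejoin them to others or to water. GH9 enzymes are endo-1,4-beta-glucanases. The GH9A type is anchored in a membrane, the GH9B type is secreted, and the GH9C type carries an added cellulose-binding module. CSLC proteins make the glucan backbone of xyloglucan, CSLA proteins make mannans, and CSLD proteins act in walls of tip-growing cells. Auxin is known to acidify and loosen the wall of elongating shoot cells, to slow elongation of the primary root, and to promote lateral roots and root hairs.

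All levels are log2 intensities as deposited, and a level is compared only within its own probe set. The lower quartile of an array lay between 6.11 and 6.29 and the median between 7.46 and 7.64. Of the 46 genes, 31 had all 16 group means above the highest lower quartile. The others had at least 1 group mean at or under it, and 5 (CSLA01, EXPA24, GH9A4, GH9B11 and GH9B16) stayed under the lowest of these quartiles in all groups, so they were not shown to lie above background. Changes are IAA minus control at the same time with their standard error (n = 3 arrays in each group), and a change was called at an adjusted p under 0.05, adjusted over all 22746 probe sets. The F test asks whether any of the 7 changes from 0.5 to 24 h differs from 0. Control 0 h replicate 3, IAA 1 h replicate 3, IAA 2 h replicate 3 and IAA 24 h replicate 2 deviated most from their groups and are called the 4 deviant arrays.

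Over the whole course, 17 of the 46 wall genes passed the F test, 37.0%, beside 28.3% of all probe sets tested. For 11 of the 17 the largest change was downward and for 6 upward. Of the 6429 probe sets that passed, it was downward for 2824 (12.4% of all 22746 tested) and upward for 3605 (15.8%). A fold of at least 2 was reached by 9 of the 17, and by 1597 of the 6429 (7.02% of all probe sets). XTH genes and GH9 genes held 12 of the 17. Past the F test were 5 of 9 XTH genes (4 down, 1 up), 7 of 15 GH9 genes (5 down, 2 up), 3 of 10 alpha-expansins (1 down, 2 up) and 2 of 4 expansin-like genes (1 down, 1 up). No CSL gene (of 7) and not BGAL16 passed it. Without replicate 1 the count was 12, when 12.1% of all probe sets passed, and without replicate 2 it was 13, when 15.6% did.

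At 0 h no wall gene was called (0.0% of all probe sets). An unadjusted p under 0.05 was found for 1, and the share of all probe sets at that level is not given here. At 0.5 and 1 h only XTH32 was called, as lower, beside 0.251% and 0.607% of all probe sets called lower, 0.928% and 1.34% called higher, and 1.18% and 1.94% in either direction. All IAA arrays lay above all control arrays for 6 wall genes at 0.5 h and 7 at 1 h, and below them for 1 and 4. At 0 h the same counts were 3 above and 0 below. How many of all probe sets were apart in this way was not counted. Nothing particular to the wall genes is therefore read from these counts. With the replicate number as a block there were 2 calls at 0.5 h, XTH32 lower and XTH18 higher. At 2 h 7 wall genes were lower and 2 higher, beside 3.76% and 5.44% of all probe sets (9.21% in all), and their median change was -0.147 against -0.0134 for all probe sets. At 4 h 8 were lower (background 7.1%) and 5 higher (9.73%). At 8 h 9 were lower (6.43%) and 2 higher (8.45%), with a median of -0.146 against -0.00818. At 12 h 7 were lower (4.93%) and 5 higher (5.99%). At 24 h only XTH16 and XTH21 were lower (3.21%) and GH9B5 higher (3.79%). As shares of the 46, the genes called lower made up 15.2% at 2 h, 17.4% at 4 h, 19.6% at 8 h and 15.2% at 12 h, and fell back to 4.35% at 24 h. The single call at 0.5 h was lost without IAA 0.5 h replicate 1 or control 0.5 h replicate 2 or 3. Without replicate 1 the counts at 2, 4, 8 and 12 h were 3, 7, 7 and 3. The share of all probe sets called in that setting at these times is not given here.

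**Figure D1:**
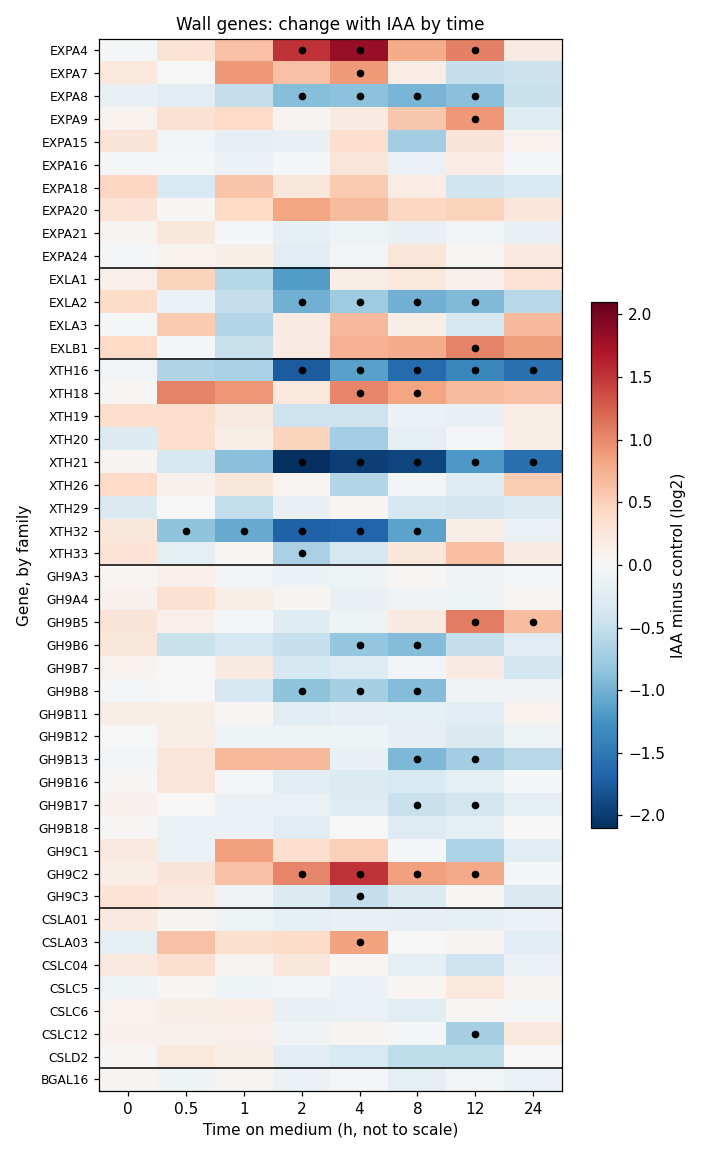
Change with IAA (IAA minus control, log2, colour) of the 46 wall genes (rows, grouped by family) at the 8 times (columns, hours, not to scale); black dots mark calls at an adjusted p under 0.05. Blue rows with dots from 2 h are XTH16 and XTH21, XTH32 is blue from 0.5 to 8 h, EXPA4 and GH9C2 are red from 2 to 12 h, and the CSL rows stay pale with 2 dots.

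Of the 46 genes, XTH21, XTH16 and XTH32 fell most. XTH21 is known for a part in primary root growth. For XTH21 the control arrays of 2 h read 8.43, 8.47 and 8.28, and the IAA arrays 6.00, 6.19 and 6.72. The groups did not overlap, and XTH21 was 4.24-fold lower (log2 -2.09 ± 0.303, adjusted p = 6.62e-06). The IAA mean of 2 h, 6.20, lay within the range of the arrays' lower quartiles, so the size of this fold rests on values not shown to be above background. At 1 h its IAA arrays (6.38, 6.98 and 7.38) already lay below the control arrays (7.74, 7.73 and 7.92), a change of -0.88 that did not pass (adjusted p = 0.159). Without the 4 deviant arrays it passed (-1.12 ± 0.221, adjusted p = 0.00179). The change was -1.98 at 4 h, -1.92 at 8 h, -1.20 at 12 h and -1.58 at 24 h, all called. At 24 h the IAA arrays were 7.55, 5.55 and 7.41, so replicate 2 alone stood far down, and without that array the change was -0.94 ± 0.244 (adjusted p = 0.0142). The 12 h call was lost without replicate 1 (adjusted p = 0.139) and the 24 h call when only the 6 arrays of that time were fitted (0.107).

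XTH16 was called lower from 2 h in the fit of all arrays and stayed low. Its control arrays of 2 h read 8.37, 8.16 and 7.76 and its IAA arrays 6.50, 6.13 and 6.43, 3.35-fold lower (log2 -1.74 ± 0.22, adjusted p = 5.29e-07). At 24 h the control arrays read 7.72, 8.07 and 8.32 and the IAA arrays 6.54, 6.29 and 6.57, still 2.97-fold lower (-1.57, adjusted p = 2.73e-06). No array of either medium crossed into the other's range from 2 to 24 h. At 0.5 and 1 h the media overlapped (-0.64 and -0.69, adjusted p = 0.229 and 0.116). Of the IAA arrays of 1 h (6.31, 6.67 and 7.43), only replicate 3, a deviant array, lay within the control arrays (7.42, 7.24 and 7.81). The 1 h change passed without the 4 deviant arrays (adjusted p = 0.00666), without replicate 3 (0.0326) and without IAA 1 h replicate 3 (0.00626). That of 0.5 h passed without replicate 3 (0.0123). None of the alternatives ended a call of XTH16.

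XTH32, of a small XTH subgroup known for hydrolysing xyloglucan, was called lower earliest in the fit of all arrays, and returned. Its control arrays of 0.5 h read 8.56, 8.75 and 8.83 and its IAA arrays 7.70, 7.97 and 7.95. These groups were apart, a change of -0.84 ± 0.187 (1.79-fold lower, adjusted p = 0.0104). At 2 h the control arrays read 8.80, 9.03 and 8.64 against 6.90, 6.80 and 7.66 on IAA, 3.25-fold lower (-1.70, adjusted p = 3.09e-08). It was called at every time from 0.5 to 8 h. At 12 h the IAA arrays (8.56, 8.76 and 8.56) lay within or above the control arrays (8.82, 8.37 and 8.27), and at 24 h the change was -0.13 (adjusted p = 0.792). Between 8 and 24 h its IAA effect shifted by 0.98 ± 0.264 (adjusted p = 0.0507). The shift passed in 9 alternatives, among them quantile normalization (0.0462), the replicate number as a block (0.0464) and without IAA 24 h replicate 2 (1.18 ± 0.265, 0.0121). The 0.5 h call was lost without replicate 1 or 2, IAA 0.5 h replicate 1 or control 0.5 h replicate 2 or 3 (adjusted p 0.0575 to 0.372). The 1 h call was lost without replicate 1 (0.0972) and with only the 6 arrays of 1 h (0.0592).

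**Figure D2:**
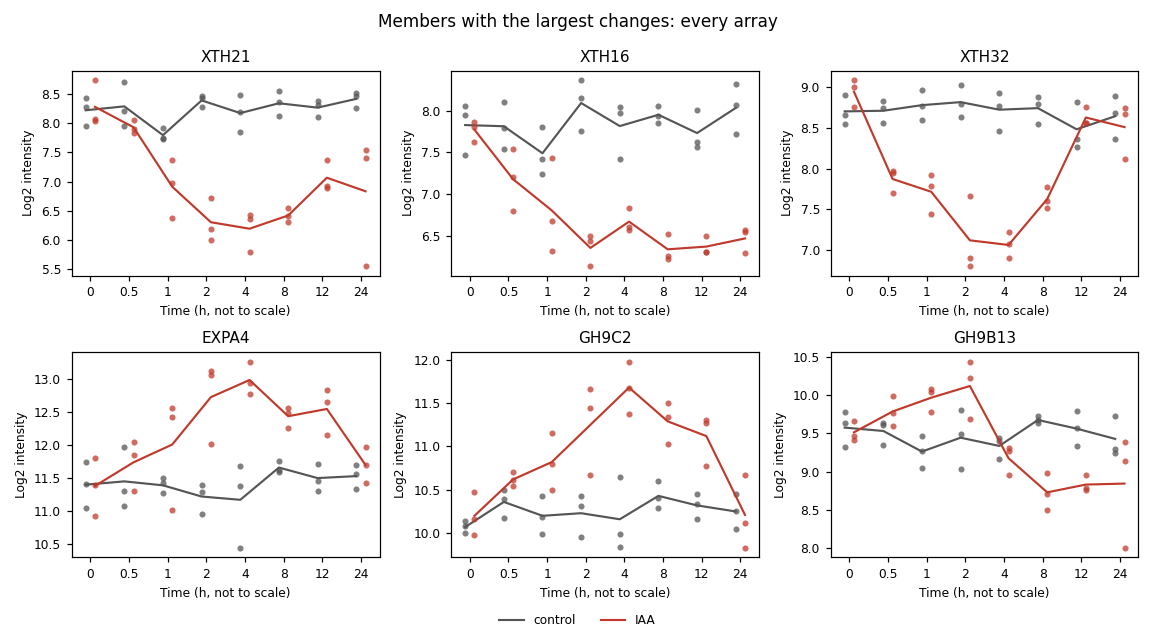
Log2 intensity of XTH21, XTH16, XTH32, EXPA4, GH9C2 and GH9B13 on every array (points) at the 8 times (hours, not to scale) on control medium (grey) and IAA (red); lines join the means of 3 arrays. The IAA line of XTH16 stays low to 24 h, those of XTH32, EXPA4 and GH9C2 meet the control line at 24 h, and that of GH9B13 crosses it between 2 and 8 h.

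XTH18 was the XTH gene past the F test with its largest change upward (F adjusted p = 0.000101). At 4 h the control arrays read 9.58, 9.94 and 9.89 and the IAA arrays 10.76, 10.59 and 11.14, 2.04-fold higher (log2 1.03 ± 0.287, adjusted p = 0.00997). The largest change was 1.04 at 0.5 h, with the IAA arrays (11.67, 11.57 and 11.02) above the control arrays (10.15, 10.96 and 10.02), and it did not pass (adjusted p = 0.0664). It passed with the replicate number as a block (0.0362), quantile normalization (0.0481), without the 4 deviant arrays (0.0194), and without control 0.5 h replicate 2 (0.022) or IAA 0.5 h replicate 3 (0.0346). The arrays of the media were apart at every time from 0.5 to 24 h except 2 h, where the change was 0.22. The F call was lost without replicate 1 (0.111). The 4 h call was lost without replicate 1, control 4 h replicate 1 or IAA 4 h replicate 3 (0.0521 to 0.162), and the 8 h call of 0.82 in 9 alternatives (0.065 to 0.266).

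XTH19 lies next to XTH18 on the chromosome, with no protein-coding gene between them, and both belong to a group of closely related root XTH genes. XTH19 did not pass the F test (adjusted p = 0.153). Its changes were 0.36 at 0.5 h, -0.43 at 2 h, -0.44 at 4 h and 0.13 at 24 h. At 4 h its IAA arrays (10.92, 10.49 and 10.82) lay below the control arrays (10.95, 11.21 and 11.38), the opposite order to XTH18. The difference between the 2 genes was not tested. XTH20, of the same group, spread widely between replicates, from 8.75 to 10.93 among the IAA arrays of 0.5 h, and did not pass (adjusted p = 0.878, largest change -0.72 at 4 h).

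XTH33 passed the F test narrowly (adjusted p = 0.0367). Its IAA arrays of 2 h read 6.28, 6.29 and 6.27 against 7.08, 7.07 and 6.74, 1.60-fold lower (log2 -0.68 ± 0.225, adjusted p = 0.0492), and at 12 h its change was 0.62 (adjusted p = 0.0687, and 0.0211 with the replicate number as a block). The call at 2 h was lost in 8 alternatives (0.0545 to 0.494). The IAA level of 2 h lay within the range of the arrays' lower quartiles. XTH26 and XTH29 did not pass, and their lowest group means were 5.63 and 5.30.

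Among the alpha-expansins, EXPA4 rose and EXPA8 fell. For EXPA4 the control arrays of 4 h read 11.38, 11.69 and 10.44 and the IAA arrays 12.78, 12.94 and 13.27. All IAA arrays lay above all control arrays, 3.54-fold higher (log2 1.82 ± 0.317, adjusted p = 5.73e-05). At 2 h the IAA arrays read 13.12, 13.06 and 12.02 against 10.96, 11.40 and 11.29 (1.51, adjusted p = 0.0012). The change was 0.78 at 8 h (adjusted p = 0.0948), 1.05 at 12 h (0.0245) and 0.17 at 24 h (0.86), where the media overlapped. The 8 h change passed with the 6 arrays of that time alone (0.00252), without replicate 3 (0.00762) and without the 4 deviant arrays (0.023). At 1 h IAA replicates 1 and 2 (12.43 and 12.57) were high and replicate 3 (11.02) was below the control arrays. Without the 4 deviant arrays, which include that one, the 1 h change was 1.10 ± 0.273 (adjusted p = 0.0172). The 2 h call was lost without replicate 1 or 2 or with the 6 arrays of 2 h alone (0.0609 to 0.256), and the 12 h call without replicate 1 or 2 or any array of those numbers (0.0664 to 0.291).

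EXPA8 fell from 2 to 12 h. At 8 h the control arrays read 7.82, 7.75 and 8.29 and the IAA arrays 7.09, 6.78 and 7.09, 1.96-fold lower (log2 -0.97 ± 0.194, adjusted p = 0.000395). From 1 to 24 h all IAA arrays lay below all control arrays of the same time. The change at 24 h was -0.46 (adjusted p = 0.169). Only the call at 2 h was lost in any alternative, without replicate 1 or 3 or with the 6 arrays of 2 h alone (0.0659 to 0.122).

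EXPA9 was called at 12 h alone, with IAA arrays of 10.56, 10.49 and 10.30 against 9.46, 9.45 and 9.72 (1.87-fold higher, log2 0.91 ± 0.288, adjusted p = 0.0348), and did not pass the F test (0.0864). That call was lost in 7 alternatives (0.0563 to 0.245). At 24 h the IAA arrays of EXPA9 were 9.99, 7.71 and 9.46, with replicate 2 far below the others. EXPA20 stood just outside the F threshold (0.052), with its largest change 0.83 ± 0.293 at 2 h (adjusted p = 0.0706, and 0.00118 with the replicate number as a block). Its change of 0.67 at 4 h (0.122) also passed with the block (0.00527). EXPA15 showed -0.74 at 8 h (adjusted p = 0.0894), which passed with the block (0.0496), without the 4 deviant arrays (0.0234) and with the 6 arrays of 8 h alone (0.0219). EXPA16, EXPA21 and EXPA24 did not pass, and their largest changes were 0.25, 0.23 and 0.26.

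EXPA7 and EXPA18 encode expansins of root hairs, and GH9C1 and XTH26 are also known from root hair cells. EXPA7 passed the F test (adjusted p = 0.0225), while EXPA18 (0.512), GH9C1 (0.13) and XTH26 (0.913) did not. At 4 h the control arrays of EXPA7 read 8.96, 9.09 and 9.75 and the IAA arrays 10.33, 10.19 and 9.95. IAA was above control there, by 1.85-fold (log2 0.89 ± 0.314, adjusted p = 0.0473), and the call was lost in 9 alternatives (0.0509 to 0.302). At 12 h the media overlapped, with 9.02, 8.40 and 8.74 on IAA against 8.33, 9.48 and 9.86 (-0.51, adjusted p = 0.352). Without control 12 h replicate 1 this change was -0.95 ± 0.314 and passed (0.0497). The F call of EXPA7 was lost without replicate 2 (0.289) and without the 4 deviant arrays (0.0744).

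EXPA18 and GH9C1 showed values of the same signs at 1, 2, 4, 12 and 24 h, none of them called. EXPA18 had 0.60, 0.23, 0.54, -0.42 and -0.32, and GH9C1 had 0.87, 0.35, 0.50, -0.64 and -0.22. XTH26 had 0.24, 0.04, -0.61, -0.26 and 0.54 at these times, and CSLD2, a cellulose synthase-like gene that also acts in root hairs, had 0.13, -0.22, -0.31, -0.54 and -0.01. At 4 h both therefore had the sign opposite to EXPA7, EXPA18 and GH9C1, again with no call. The value of XTH26 at 4 h reversed its sign when replicate 3 was left out. Without control 12 h replicate 1 the 12 h value of GH9C1 was -1.04 ± 0.324 and passed (adjusted p = 0.036). At 1 h the IAA arrays lay above the control arrays for EXPA7 (9.22, 9.62 and 9.93 against 8.42, 8.78 and 8.87), EXPA18 (9.10, 9.84 and 9.71 against 8.76, 9.08 and 9.01) and GH9C1 (9.20, 9.71 and 10.10 against 8.56, 9.10 and 8.76). The summed linear intensity of the measured root hair markers, which are EXPA7 and EXPA18 alone (2 of 19), was 775 to 983 on control medium and 1140 to 1810 on IAA at 1 h. At 4 h it was 1210 to 2150 and 2210 to 2980, and at 12 h 729 to 2380 and 903 to 1190. Whether the number of root hair cells moved with these values was not tested.

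These genes also stood above their 0 h level on control medium, without passing the test. Relative to control at 0 h, EXPA18 stood at 0.96 after 2 h, 1.12 after 4 h, 0.88 after 8 h and 0.93 after 12 h. GH9C1 stood at 0.76, 0.77, 0.53 and 0.74 and XTH26 at 0.59, 1.28, 0.87 and 1.05. None was called, since 0 of all probe sets passed any limma comparison of a later control time with 0 h. Unadjusted p was under 0.05 for 6 wall genes at 4 h and for 4 at 2, 8 and 12 h. No share of all probe sets at that level is given, so nothing particular to the wall genes is read from these counts. For XTH26 the control values of 4, 8 and 12 h rested on replicate 3, at 8.06, 7.58 and 7.67, while replicates 1 and 2 lay between 5.88 and 6.64.

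**Figure D3:**
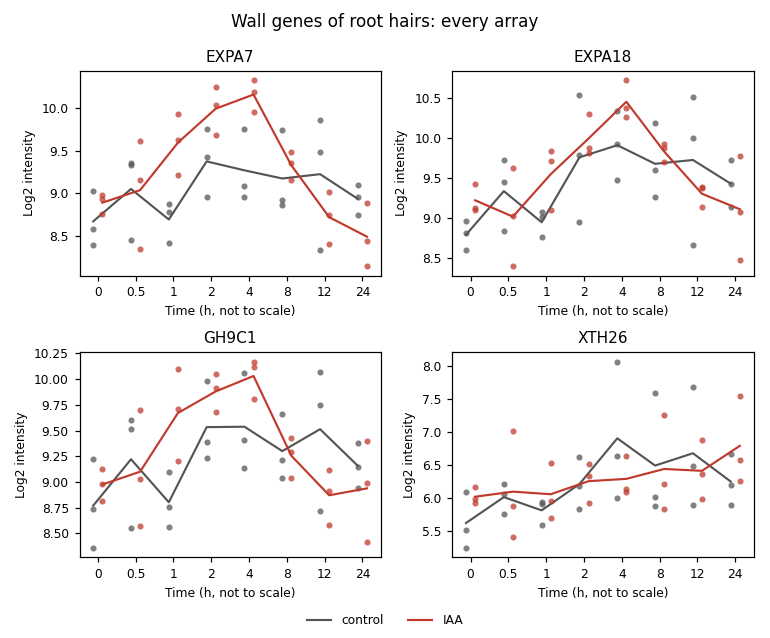
Log2 intensity of EXPA7, EXPA18, GH9C1 and XTH26 on every array (points) at the 8 times (hours, not to scale) on control medium (grey) and IAA (red); lines join the means of 3 arrays. In EXPA7, EXPA18 and GH9C1 the IAA line lies above the control line from 1 to 4 h and below it at 12 and 24 h, with wide control points at 12 h.

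Of the expansin-like genes, whose wall-loosening activity is not established, EXLA2 fell and EXLB1 rose. For EXLA2 at 8 h the control arrays read 7.78, 7.76 and 7.73 and the IAA arrays 6.75, 6.50 and 6.98, 2.02-fold lower (log2 -1.01 ± 0.224, adjusted p = 0.00127). It was called at 2, 4, 8 and 12 h, and the IAA arrays lay below the control arrays from 2 to 24 h. Without replicate 1 none of these calls passed (0.0542 to 0.237), while the F call did. The 4 h call was also lost without replicate 2, control 4 h replicate 1 or IAA 4 h replicate 2 (0.0661 to 0.0833).

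EXLB1 rose late. At 12 h the control arrays read 8.62, 8.71 and 8.04 and the IAA arrays 9.54, 9.28 and 9.67, 2.05-fold higher (log2 1.04 ± 0.287, adjusted p = 0.0131). The change was 0.74 at 4 h, 0.79 at 8 h and 0.88 at 24 h (adjusted p = 0.0747, 0.06 and 0.054). With the replicate number as a block all 3 passed (0.0314, 0.023 and 0.0183). At 24 h the IAA arrays were 9.71, 8.57 and 9.99. Without the 4 deviant arrays, which include that replicate 2, the change was 1.31 ± 0.278. The 12 h call was lost without replicate 1 or 3 or an array of replicate 3 of that time (0.0653 to 0.226), and the F call without replicate 1 (0.0752) or 3 (0.208).

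EXLA1 and EXLA3 are direct neighbours on the chromosome and spread widely between replicates up to 2 h. On control medium replicate 3 of EXLA1 read 11.77 at 0 h and 11.74 at 2 h, while replicates 1 and 2 read 9.17, 9.32, 9.63 and 9.70. EXLA3 read 8.57 and 8.48 in those replicate 3 arrays and 6.41, 6.62, 6.50 and 6.92 in the others. At 0.5 h control replicate 1 was the low one, at 9.48 for EXLA1 and 6.32 for EXLA3. The SDs of the EXLA1 control groups were 1.46, 1.20, 1.04 and 1.20 from 0 to 2 h and at most 0.48 from 4 h on. The largest change of EXLA1 was -1.18 ± 0.557 at 2 h (adjusted p = 0.215) and that of EXLA3 0.68 ± 0.524 at 4 h (0.448). Control 0 h replicate 3 is 1 of the 4 deviant arrays, and its part in these values was not tested.

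**Figure D4:**
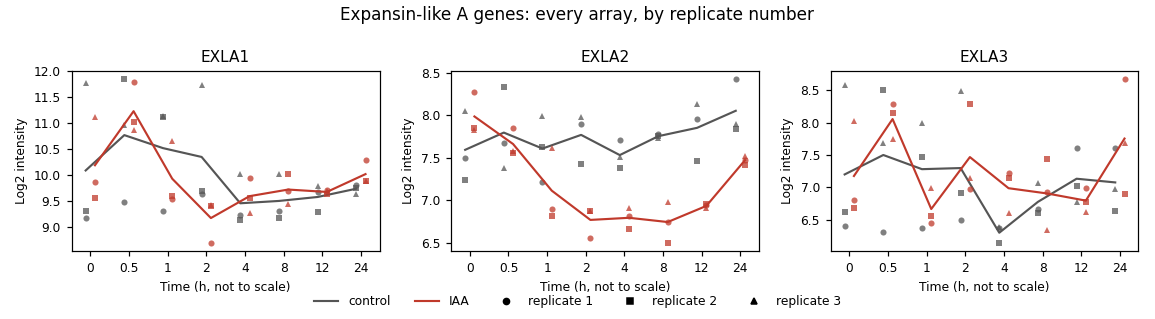
Log2 intensity of EXLA1, EXLA2 and EXLA3 on every array at the 8 times (hours, not to scale), with the marker shape giving the replicate number and the colour the medium (control grey, IAA red); lines join the means of 3 arrays. EXLA1 and EXLA3 spread by over 1 unit between replicates up to 2 h on control medium, and the IAA arrays of EXLA2 lie below its control arrays from 2 h.

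Of the GH9 glucanases, GH9C2 rose most. At 4 h the control arrays read 9.99, 10.65 and 9.84 and the IAA arrays 11.38, 11.68 and 11.98, 2.87-fold higher (log2 1.52 ± 0.222, adjusted p = 3.48e-06). From 0.5 to 12 h every IAA array lay above every control array of its time, and calls were made from 2 to 12 h. Without the 4 deviant arrays the 1 h change was also called (0.77 ± 0.213, adjusted p = 0.039). At 24 h the arrays overlapped (10.67, 9.83 and 10.12 against 10.45, 10.05 and 10.26). Between 8 and 24 h its IAA effect differed by -0.91 ± 0.314, which did not pass (adjusted p = 0.203). Without replicate 1 the calls at 2, 8 and 12 h were lost (0.108 to 0.239), and the 12 h call also without replicate 2, control 12 h replicate 2 or IAA 12 h replicate 1 or 2 (0.066 to 0.141). Its course lay near that of EXPA4, whose changes at 2, 4, 8, 12 and 24 h were 1.51, 1.82, 0.78, 1.05 and 0.17 beside 1.02, 1.52, 0.86, 0.80 and -0.05.

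The IAA effect on GH9B13 differed between times. At 2 h the IAA arrays read 10.44, 10.23 and 9.69 against 9.49, 9.03 and 9.81 on control medium, 0.68 higher, which did not pass (adjusted p = 0.05 when rounded, and 0.0294 with the replicate number as a block). At 8 h they read 8.98, 8.70 and 8.50 against 9.67, 9.63 and 9.73, 1.93-fold lower (log2 -0.95 ± 0.225, adjusted p = 0.00263). The effect at 8 h minus that at 2 h was -1.63 ± 0.318 (adjusted p = 0.00203). In this comparison 1.75% of all probe sets were called, 0.497% as lower and 1.25% as higher. No other wall gene was called in that comparison and none in that from 8 to 24 h (background 1.29%). Without the 4 deviant arrays, the rises of 1 and 2 h were called (0.80 and 0.89, adjusted p = 0.0103 and 0.000784). The call for this difference was lost without replicate 1 (0.14) or 2 (0.0538), the 8 h call without replicate 3 (0.0583), and the 12 h call in 6 alternatives (0.0675 to 0.217).

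GH9B8 and GH9B6 were called lower in the middle of the course in the fit of all arrays. For GH9B8 at 8 h the control arrays read 9.89, 10.05 and 10.27 and the IAA arrays 9.57, 9.27 and 8.64, 1.88-fold lower (log2 -0.91 ± 0.243, adjusted p = 0.00767). Its change was -0.07 at both 12 and 24 h. Control 2 h replicate 3 of GH9B8 read 10.59 while replicates 1 and 2 read 9.63 and 9.61, and without it the 2 h change was -0.52 in place of -0.84 (adjusted p = 0.232 in place of 0.0216). That call was lost in 5 further alternatives, among them each replicate number left out (0.0925 to 0.146) and the 6 arrays of 2 h alone (0.199). Without replicate 3 the 8 h change was -0.55 (0.152), the 8 h call was also lost without replicate 2 or IAA 8 h replicate 3 (0.0646 and 0.0995), the 4 h call in 7 alternatives (0.0506 to 0.261), and the F call without replicate 2 (0.0798).

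GH9B6 read 6.55, 7.08 and 6.71 on control medium and 5.99, 5.73 and 5.89 on IAA at 8 h (1.88-fold lower, log2 -0.91 ± 0.187, adjusted p = 0.000588, lost without replicate 2 at 0.105). All 3 IAA values were under the lowest of the arrays' lower quartiles, so the fold rests on values not shown to be above background. At 4 h the change was -0.82 (adjusted p = 0.00169). The changes of 0.5, 2 and 12 h did not pass with all arrays (0.378, 0.103 and 0.08). Without the 4 deviant arrays those of 2 h (-0.72 ± 0.178, 0.00438) and 12 h (-0.50 ± 0.159, 0.0292) passed. Without replicate 3 those of 0.5 h (-0.75 ± 0.182, 0.0295) and 2 h (0.00226) did.

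GH9B5 was the wall gene with a late rise that was still called at 24 h. At 12 h the control arrays read 6.20, 5.99 and 6.28 and the IAA arrays 7.30, 7.17 and 7.25, 2.11-fold higher (log2 1.08 ± 0.165, adjusted p = 7.9e-06). No alternative ended that call. The control means of GH9B5 lay around the lower quartiles, so this fold too rests on a low level. At 24 h the IAA arrays were 7.13, 6.11 and 7.02, and replicate 2 stood within the control arrays. The 24 h call (0.65, adjusted p = 0.0101) was lost in 6 alternatives (0.086 to 0.285).

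GH9C3 and GH9B17 fell by less. GH9C3 was 1.42-fold lower at 4 h (log2 -0.50 ± 0.14, adjusted p = 0.0098), with IAA arrays of 6.89, 6.81 and 7.07 against 7.30, 7.48 and 7.49. GH9B17 was 1.39-fold lower at 8 h (-0.47 ± 0.123, 0.00662), with 5.88, 5.74 and 5.82 against 6.37, 6.14 and 6.34, values around and below the lower quartiles. Both lost the F call without replicate 1 (0.157 and 0.209) and without replicate 3 (0.0721 and 0.0858), GH9C3 also without replicate 2 (0.148) and GH9B17 also with quantile normalization (0.0729). The calls at 4 h of GH9C3 (0.0544 to 0.134) and at 8 h of GH9B17 (0.0529 and 0.156) were lost in some alternatives. The 12 h call of GH9B17 was lost in 10 (0.053 to 0.435) and its change there was -0.25 without control 12 h replicate 3. GH9B17 stands between GH9B16 and GH9B18 on the chromosome with no other protein-coding gene between them, and these neighbours did not pass (adjusted p = 0.0835 and 0.203), with -0.32 and -0.28 at 8 h.

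The remaining GH9 genes gave no F call. They were the membrane-anchored GH9A3 and GH9A4, the neighbours GH9B11 and GH9B12, and GH9B7, GH9B16, GH9B18 and GH9C1. GH9B7, at group means from 10.1 to 10.6, had a largest change of -0.39 ± 0.205 at 24 h (adjusted p = 0.309). Apart from GH9C1, described with the root hair genes, no change of these 8 exceeded 0.39 in size.

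**Figure D5:**
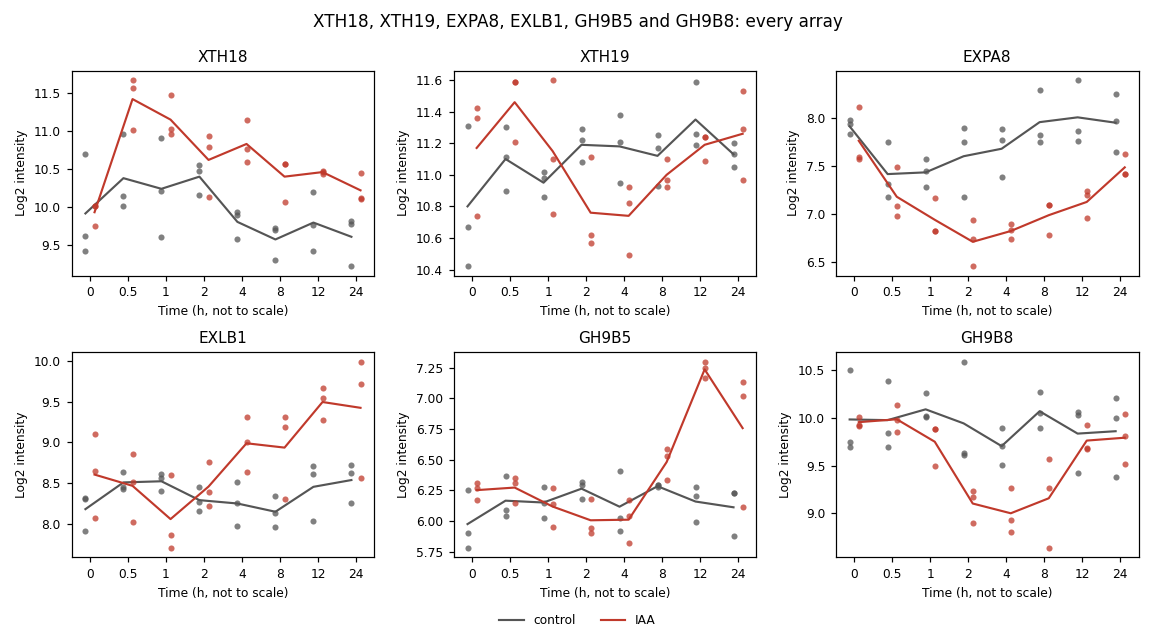
Log2 intensity of XTH18, XTH19, EXPA8, EXLB1, GH9B5 and GH9B8 on every array (points) at the 8 times (hours, not to scale) on control medium (grey) and IAA (red); lines join the means of 3 arrays. XTH18 lies higher on IAA after 0 h while its neighbour XTH19 overlaps or lies lower. EXPA8 lies lower from 1 h and GH9B8 is low from 2 to 8 h. The IAA points of EXLB1 lie above its control points at 4 and 12 h, and GH9B5 separates upward by 12 h.

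The genes of polysaccharide synthesis gave few calls. The xyloglucan backbone synthases CSLC04, CSLC5, CSLC6 and CSLC12 did not pass the F test (adjusted p from 0.207 to 0.786). CSLC12 was called once, at 12 h, with IAA arrays of 6.51, 6.08 and 6.53 against 6.90, 7.28 and 7.04 (1.62-fold lower, log2 -0.70 ± 0.202, adjusted p = 0.0186). The call was lost without replicate 1 or 2 or either 12 h array of replicate 2 (0.0857 to 0.365), and without replicate 2 the change was -0.44. Of the mannan synthases, CSLA03 was called at 4 h, with 8.75, 8.91 and 8.69 on IAA against 7.75, 7.85 and 8.23 (1.79-fold higher, 0.84 ± 0.298, adjusted p = 0.0467, lost in 8 alternatives at 0.0538 to 0.337). CSLA01 lay below the lower quartiles throughout.

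CSLD2, which acts in root hair growth, had tight IAA arrays of 9.12, 9.29 and 9.22 at 8 h against 9.69, 9.69 and 9.84. The media did not overlap at 4, 8 and 12 h, and the changes of -0.31, -0.53 and -0.54 did not pass in the fit of all arrays (adjusted p = 0.449, 0.144 and 0.165). Fitted with the 6 arrays of the time alone, those of 8 and 12 h passed (0.009 and 0.0206), and with the replicate number as a block that of 8 h did (0.0445). CSLC04 had its largest change at 12 h (-0.44 ± 0.281, adjusted p = 0.371). BGAL16 had its largest change at 8 h (-0.21, adjusted p = 0.243) at group means from 5.91 to 6.13.

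Other wall genes with single-gene probe sets were taken from lists set by symbol, beside the same 28.3% of all probe sets past the F test. Of 4 beta-expansins 3 passed, with EXPB2 25.0-fold higher at 12 h (log2 4.64 ± 0.251), EXPB1 5.71-fold lower at 8 h (-2.51 ± 0.319) and EXPB3 2.24-fold lower at 8 h (-1.16 ± 0.31). The control arrays of EXPB2 at 12 h read 6.02, 6.28 and 6.69, around the arrays' lower quartiles. The size of its fold therefore rests on a level not shown to be above background. Of 22 TBL genes, a family of polysaccharide O-acetyltransferases and relatives, 12 passed, 5 with their largest change upward and 7 downward. TBL36 was 4.84-fold higher at 12 h (2.28 ± 0.288, adjusted p = 2.34e-07) and TBL41 2.43-fold higher at 12 h. TBL37 was 2.19-fold lower at 8 h and TBL30 2.09-fold lower at 24 h. IRX15, of xylan synthesis, was 1.57-fold lower at 12 h. GAUT15, of a galacturonosyltransferase family, was 1.98-fold higher at 12 h (0.99 ± 0.191). COB, which orients cellulose deposition, did not pass (0.233). The symbol pattern for extensins and proline-rich proteins caught only PEX4 and PRP39, a peroxisome and a splicing protein, so no extensin was measured. No gene of the lists for xyloglucan side chains, nucleotide sugars and proton pumps had a single-gene probe set.

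The labelled tissue was checked on PYK10, a beta-glucosidase abundant in roots and the 1 measured root marker of 13, with a linear intensity between 15700 and 24600 on every array. Of 24 shoot markers 4 were measured, and their summed linear intensity did not overlap between media at 1 and 4 h. At 1 h it was 573 to 607 on IAA and 654 to 745 on control medium, with no marker called (LHCB4.1 -0.62, adjusted p = 0.132). At 4 h it was 444 to 511 on IAA and 619 to 687 on control medium, and LHCB4.1 (log2 -0.67 ± 0.203, adjusted p = 0.0178) and LHCB4.3 (-0.52 ± 0.125, 0.00306) were lower. At 2 h the ranges overlapped (506 to 627 against 584 to 632), as they did at 8 h (513 to 695 against 620 to 631). Their part in the 1 and 4 h values of the wall genes was not tested. No xylem marker had a single-gene probe set.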

How the data were processed

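Total RNA of roots was hybridised to 1 Affymetrix 3'-IVT array per sample, per the labels' protocols. The authors deposited log2 intensities, 1 per probe set and array. This unit was read from the values (array maxima between 14.1 and 15.1). How probes were summarised and normalized is not given in these sources. Control probe sets were left out. Genes came from the array's gene table and symbols from RefSeq (TAIR10.1), and 13513 of 22746 named exactly 1 gene. A mean for each group was fitted to all 48 arrays with limma 3.58.1 in R 4.3.3 (lmFit, eBayes, 32 residual degrees of freedom), without a filter on low values. Within each contrast the Benjamini-Hochberg adjustment of the p-values (two-sided) ran over all probe sets. The fit was tested on simulated data. Arrays have no read depth, and 3 arrays a group limit precision. Same-numbered control and IAA arrays deviated together (correlation over 0.1) in 20 of 24 pairs, and in all 3 pairs at 6 of 8 times, the exceptions being 4 and 12 h. The labels do not say what a number marks, and pairing was to be used only if every pair passed, so the fit has no block. Calls that a replicate block adds are given beside the results. Named with values were all genes past the F test, in each family the 2 with the highest mean and the 2 largest changes not past it, and up to 4 largest changes past it of each other list. EXPA16, EXPA18, EXPA21, EXPA24, CSLA01, XTH29 and chromosome neighbours were named after their values were seen. IRX15, COB, PEX4 and PYK10 were also named outside this rule. The genes and lists were chosen with earlier results of these data known. Alternatives were quantile normalization, median centring, a filter on low values, a replicate block, an intensity trend with robust estimation, arrays or replicate numbers left out, a fold of at least 2, and a fit of 1 time alone.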

Additional observations from a re-analysis of the deposited data

Results flagged for a closer look

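GH9B13 stood out because its IAA effect at 8 h differed from that at 2 h by a test of the difference itself, a log2 change of -1.63 (limma adjusted p = 0.00203). Of the 46 wall genes it alone was called in that comparison (2.17%), beside 1.75% of all probe sets, so nothing particular to the wall genes is read from this. At 2 h the media overlapped, and at 8 h the IAA arrays lay below the control arrays. At 1 h, a time outside this test, the IAA arrays lay above the control arrays (10.08, 10.04 and 9.78 against 9.05, 9.27 and 9.47). That change was not called (adjusted p = 0.115). The difference was -1.38 without replicate 2 (adjusted p = 0.0538) and -1.62 without replicate 1 (0.14).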

How the results depend on the processing

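Counts of wall genes called depended on the setting as follows. The share of all probe sets past the F test moved with the setting too, as without replicate 1 (12.1%) or without the 4 deviant arrays (32.7%). For single times and for changes between times that share is not given by setting. The counts below are therefore not read as particular to the wall genes. Requiring a fold of at least 2 left 9 genes past the F test, 0 calls at 0.5 h, 6 at 4 h, 4 at 8 h and 5 at 12 h. Fitting only the 6 arrays of a time gave 0 calls at 1 h, 4 at 2 h and 1 at 24 h. Without the 4 deviant arrays there were 2 calls at 0.5 h, 6 at 1 h, 2 for the change from 2 to 8 h and 2 for that from 8 to 24 h. Quantile normalization gave 2 calls at 0.5 h. The change from 8 to 24 h had 0 calls in limma and 4 genes at an unadjusted p under 0.05, a level for which no share of all probe sets is given. It had 1 call with quantile normalization, median centring, the filter on low values, or trend and robust estimation. With the replicate number as a block there were 2 calls at 0.5 h and 1 for the change from 8 to 24 h. With it 19 genes passed the F test, when 36.4% of all probe sets did, and none of the named calls was lost. The pair correlations (-0.18 to 0.483, over 0.1 in 20 of 24) were taken within single times. The block fits 1 effect per replicate number over all times, so they do not test it.

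Leaving out a replicate number or 1 array gave 12 to 19 genes past the F test, 0 to 4 calls at 0.5 h, 0 to 3 at 1 h, 3 to 11 at 2 h, 7 to 13 at 4 h, 7 to 11 at 8 h, 3 to 10 at 12 h, 2 to 4 at 24 h, and 0 to 2 for each change between times. Replicate 1 gave the lowest counts at 2, 4, 8 and 12 h. Single arrays that moved a count by over 1.5 times were, at 0.5 h, IAA replicate 1 and control replicate 3 (0 calls each) and IAA replicate 3 (2). At 1 h they were control replicate 2 (3) and IAA replicate 3 (2), at 4 h control replicate 1 and IAA replicate 2 (8 each), and at 12 h IAA replicate 2 (7). For the change from 8 to 24 h they were control 24 h replicate 1 and control 8 h replicate 3 (1 each) and IAA 24 h replicate 2 (2). The cause was not tested. Of 510 alternatives for 32 single-gene results, 451 kept direction and side of the threshold, 42 fell below it, 16 passed it and 1 reversed. The reversal was that of XTH26 at 4 h without replicate 3 (0.0444, adjusted p = 0.942, against -0.61 with all arrays and -1.24 without replicate 1). Each result was the largest change of 1 gene, and a change not called with all arrays counted as kept while it stayed uncalled. For the genes past the F test 243 alternatives kept direction and side, 23 fell below the threshold and 5 passed it. Calls at other times and F calls are outside these counts, and their losses are given with the genes. A choice between probe sets of a gene was not run, since each gene had 1. Values near the lower quartile of an array limit what a fold shows.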

Other observations

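Probe sets shared by 2 genes of these families were not used for the counts above. They stand for GH9B9 with GH9B10, GH9B14 with GH9B15, EXPA22 with a gene listed as EXP26, and EXPA23 with EXPA25. None of the 4 passed the F test (limma adjusted p = 0.122, 0.512, 0.287 and 0.475).

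IAA 24 h replicate 2 stood below replicates 1 and 3 in several wall genes. It read 5.55 for XTH21, 7.71 for EXPA9, 8.00 for GH9B13, 6.11 for GH9B5 and 8.57 for EXLB1, while replicates 1 and 3 read 7.55 and 7.41, 9.99 and 9.46, 9.39 and 9.14, 7.13 and 7.02, and 9.71 and 9.99. These genes were picked after their values were seen. For EXPA4 and XTH18 the same array lay near the others (11.43 beside 11.97 and 11.70, and 10.12 beside 10.45 and 10.10).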
